A study of Homo sapiens with 12 samples.

Results

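This account concerns 6 genes of ion channels in the plasma membrane, taken by symbol from the 23497 genes of the deposited count table. They were chosen by their gene family and by their counts in the 4 groups, as seen in an earlier look at this table. They are the mechanically gated channel genes PIEZO1 and PIEZO2 and the potassium channel genes KCNE4, KCNJ15, KCNMA1 and KCNN4. The libraries measured polyadenylated RNA of the human melanoma line WM1366, which carries mutant NRAS, in 4 groups of 3 libraries each. Each of 3 resistant daughter lines was kept with a BRAF inhibitor and a MEK inhibitor: encorafenib plus binimetinib (EB-resistant), vemurafenib plus cobimetinib (VC-resistant) or dabrafenib plus trametinib (DT-resistant). The sensitive parent line, which shares the NRAS mutation, was grown with DMSO. Cells were plated 72 h before lysis, and the 3 libraries of a group are replicates 2, 5 and 6 of independent experiments. Each drug pair is represented by 1 resistant line, and the sources used here give neither doses nor whether a line is a single clone. Resistance, presence of drug and culture history differ together between a resistant line and its parent and cannot be told apart.

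PIEZO1 and PIEZO2 encode large trimeric channels that open when the membrane is stretched and let calcium and other cations in; PIEZO1 is widely expressed, and PIEZO2 is best known for touch and proprioception in sensory neurons. KCNMA1 encodes the pore of the BK channel, which opens with depolarisation and calcium, and KCNN4 the pore of the intermediate-conductance channel KCa3.1, which opens with calcium through calmodulin. KCNJ15 encodes the inward rectifier Kir4.2, and KCNE4 a single-pass auxiliary subunit that inhibits voltage-gated potassium channels such as those of KCNQ1 and KCNA3. Potassium efflux through calcium-activated channels holds the membrane potential negative and so sustains the drive for calcium entry.

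Library totals ran from 40491309 to 54495132 counts, and 17114 genes had enough counts to be tested, all 6 channel genes among them. Levels are CPM, read counts scaled to a common library total after TMM normalisation, given as mean ± SD over 3 libraries. Log2 fold changes (log2FC) come with a standard error from 1 edgeR quasi-likelihood fit of all 12 libraries. The 6 genes were picked with results of these same comparisons known, so their levels and fold changes are a description and carry no p value. A gene passed when its Benjamini-Hochberg adjusted p over all tested genes was under 0.05. PIEZO2 and KCNE4 met the low-count filter only through the resistant lines. The 3 comparisons with the parent share its libraries. In bulk RNA, more cells with a transcript and more transcript per cell cannot be told apart.

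Of the 6 genes, 2 passed as higher and 2 as lower in EB-resistant against sensitive, where 56.1% of all tested genes passed in either direction. In VC-resistant against sensitive, 3 passed as higher and 3 as lower, with 55% of all genes passing. In DT-resistant against sensitive, 4 passed as higher and 2 as lower, with 59.1% of all genes passing. Between resistant lines, 4 were higher and 1 lower in EB-resistant than in VC-resistant (58.4% of all genes), 3 higher and 2 lower in EB-resistant than in DT-resistant (57.2%), and 1 higher and 2 lower in VC-resistant than in DT-resistant (15.8%). Since these contrasts entered the choice of the genes, nothing is read from the counts. A few of these passes hung on single libraries. In EB-resistant against sensitive, KCNJ15 also passed without sensitive replicate 2 (log2FC -0.83) or VC-resistant replicate 2 (log2FC -0.59), and PIEZO1 without sensitive replicate 6 (log2FC -0.27). KCNJ15 no longer passed in EB-resistant against VC-resistant without EB-resistant replicate 5 (log2FC 0.74) or 6 (log2FC 0.67), or VC-resistant replicate 5 (log2FC 0.63) or 6 (log2FC 0.68). In VC-resistant against DT-resistant, KCNN4 lost its pass without VC-resistant replicate 5 (log2FC 0.38) or DT-resistant replicate 5 (log2FC 0.34), and PIEZO2 without VC-resistant replicate 6 (log2FC -0.70).

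**Figure D1:**
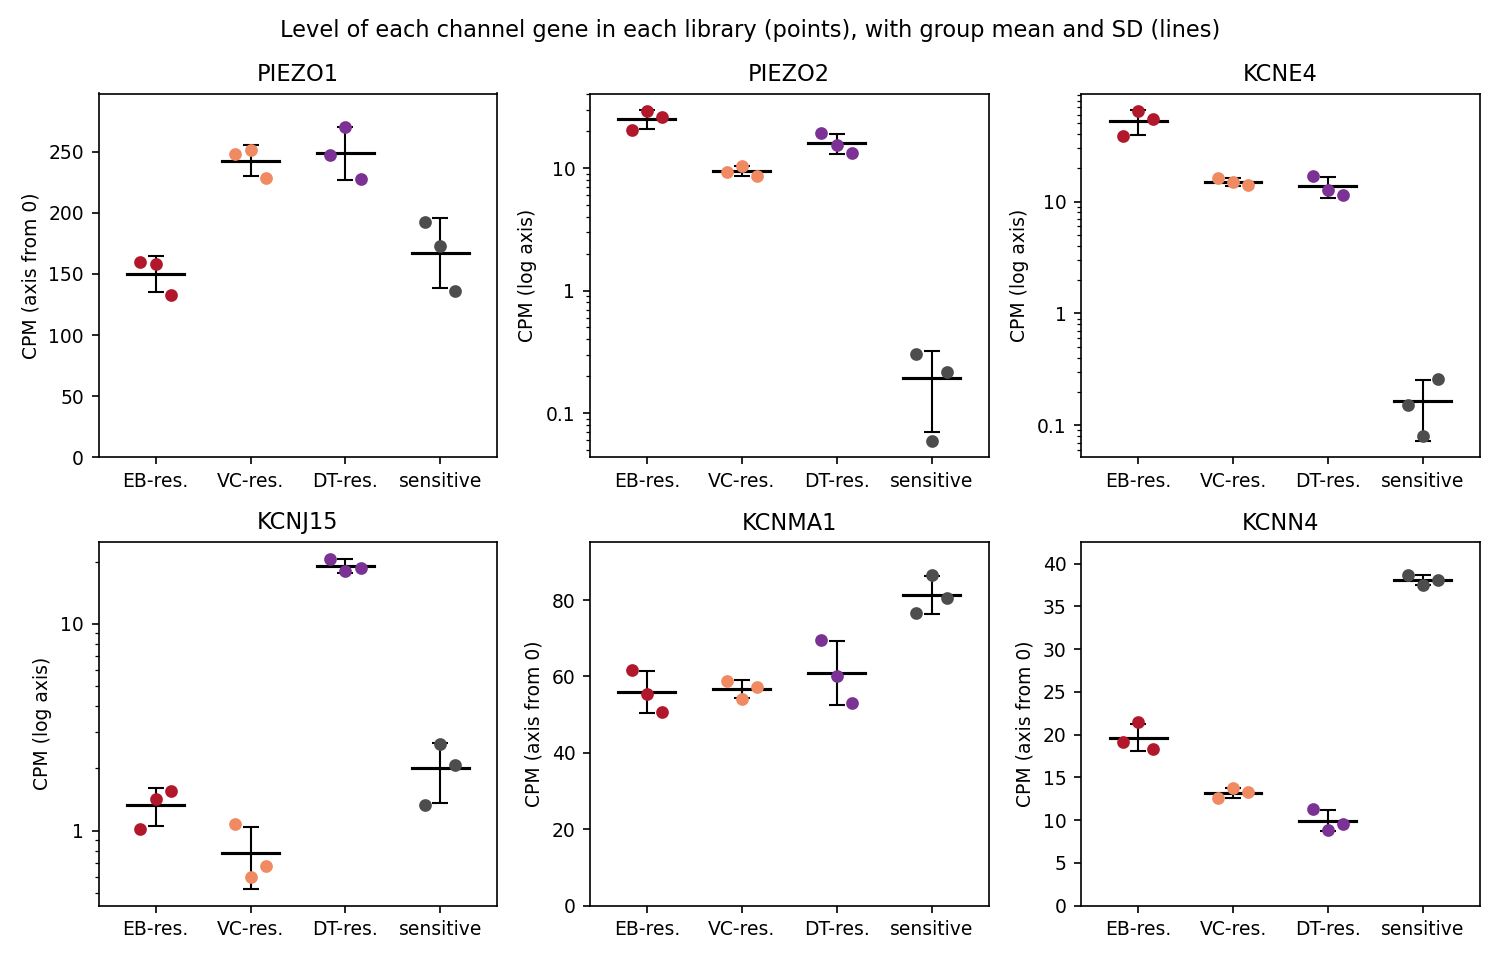
CPM of each of the 6 genes in every library (points, 3 per group), with the group mean and SD as black lines; PIEZO2, KCNE4 and KCNJ15 are on log axes and the others on axes from 0. PIEZO2 and KCNE4 are near 0 in sensitive libraries only, KCNJ15 is high in DT-resistant libraries only, and KCNMA1 and KCNN4 are highest in sensitive libraries.

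Of the mechanically gated pair, PIEZO1 was well expressed in all 4 groups and moderately higher in VC- and DT-resistant than in EB-resistant or sensitive cells. PIEZO2 was close to silent in the parent and present in every resistant line. PIEZO2 reads came to 20.6, 29.4 and 26.2 CPM in EB-resistant replicates 2, 5 and 6, 9.34, 10.4 and 8.62 CPM in VC-resistant, 19.3, 15.4 and 13.3 CPM in DT-resistant, and 0.305, 0.0595 and 0.218 CPM in sensitive replicates. The 3 parental libraries together held 27 PIEZO2 counts. No library of any group overlapped another group in PIEZO2, and the order was EB-resistant, DT-resistant, VC-resistant, sensitive. The group means were 25.4 ± 4.43, 9.45 ± 0.89 and 16.004 ± 3.06 CPM in EB-, VC- and DT-resistant cells, and 0.194 ± 0.124 CPM in sensitive cells. The log2FC against sensitive was 7.04 ± 0.29, 5.61 ± 0.30 and 6.38 ± 0.30 in EB-, VC- and DT-resistant cells, and the small parental count makes the parental level imprecise. Among the resistant lines, PIEZO2 was 1.43 ± 0.19 log2 units higher in EB-resistant than in VC-resistant, 0.66 ± 0.19 higher in EB-resistant than in DT-resistant, and differed by -0.76 ± 0.19 in VC-resistant against DT-resistant.

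PIEZO1 had 159.4, 157.8 and 132.6 CPM in EB-resistant, 248.3, 251.5 and 228.6 CPM in VC-resistant, 247.7, 270.7 and 227.6 CPM in DT-resistant, and 192.4, 173.0 and 136.0 CPM in sensitive replicates. VC-resistant and DT-resistant libraries overlapped each other and lay above all others, and EB-resistant libraries overlapped the parental ones. The log2FC against sensitive was -0.16 ± 0.11, 0.54 ± 0.11 and 0.57 ± 0.11 in EB-, VC- and DT-resistant cells. EB-resistant cells had less PIEZO1 than the VC-resistant line (log2FC -0.70 ± 0.11) and the DT-resistant line (log2FC -0.73 ± 0.11), so the 2 PIEZO genes ranked the resistant lines differently, with EB-resistant first for PIEZO2 and last for PIEZO1. Per kilobase of gene model, PIEZO2 reached 0.123 ± 0.0262 of the PIEZO1 level in EB-resistant, 0.0280 ± 0.00151 in VC-resistant, 0.0463 ± 0.00851 in DT-resistant and 0.000845 ± 0.000518 in sensitive libraries. PIEZO1 thus remained the more abundant transcript in every group. PIEZO1 overlaps CTU2, a tRNA thiolation gene on the opposite strand with 1791, 2514 and 2364 counts in EB-, VC- and DT-resistant and 2077 in sensitive libraries. Whether reads were counted by strand is not stated, and PIEZO1 had 21713, 33144, 33810 and 23812 counts in the same order.

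Promoter sequences of 5 of the 6 genes were found in RefSeq (GRCh38.p14), 250 bases before to 50 after each start, and 3 are printed because their genes had the clearest differences between groups: PIEZO2, higher in all resistant lines, KCNJ15, higher in DT-resistant cells alone among the lines, and KCNN4, lower in all resistant lines. Each runs 5′ to 3′ on the strand of its gene. Capitals mark letters that match 1 of 6 motifs searched on both strands, none of which contains another. The motif of AP-1 factors was searched as TGANTCA. The cyclic AMP response element, CRE, was searched as TGACGTCA. For TEAD factors the letters were GGAATG. The TATA box was taken to be TATAAA. For the GC box that Sp and KLF factors bind, the letters were GGGCGG. The motif of ETS factors was searched as CCGGAAGT. The PIEZO2 window is chr18:11149520-11149819 on the minus strand, starts its transcript at the first base of the table's gene, and had 76.7% GC with 38 CpG; its 1 match is a GC box, from base 163.
PIEZO2: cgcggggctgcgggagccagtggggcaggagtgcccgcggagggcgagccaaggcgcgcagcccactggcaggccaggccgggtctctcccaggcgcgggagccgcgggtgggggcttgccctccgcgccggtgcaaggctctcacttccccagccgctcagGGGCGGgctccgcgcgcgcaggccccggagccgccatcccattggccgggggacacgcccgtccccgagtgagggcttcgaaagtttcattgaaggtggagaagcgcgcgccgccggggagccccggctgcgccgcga
The KCNJ15 window is chr21:38272258-38272557 on the plus strand, lies 117.0 kb inside the gene's span in the table, and had 59.3% GC with 6 CpG; its matches are a GC box from base 80 and an AP-1 motif from base 216.
KCNJ15: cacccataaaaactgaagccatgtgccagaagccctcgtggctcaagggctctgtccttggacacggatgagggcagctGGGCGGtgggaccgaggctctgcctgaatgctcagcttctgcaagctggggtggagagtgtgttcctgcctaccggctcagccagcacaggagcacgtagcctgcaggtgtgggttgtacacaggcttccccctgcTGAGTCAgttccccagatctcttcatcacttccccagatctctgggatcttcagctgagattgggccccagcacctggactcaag
The KCNN4 window is chr19:43780924-43781223 on the minus strand, starts 0.284 kb inside the table's gene, and had 60.7% GC with 6 CpG; its 1 match is a GC box, read on the opposite strand from base 182.
KCNN4: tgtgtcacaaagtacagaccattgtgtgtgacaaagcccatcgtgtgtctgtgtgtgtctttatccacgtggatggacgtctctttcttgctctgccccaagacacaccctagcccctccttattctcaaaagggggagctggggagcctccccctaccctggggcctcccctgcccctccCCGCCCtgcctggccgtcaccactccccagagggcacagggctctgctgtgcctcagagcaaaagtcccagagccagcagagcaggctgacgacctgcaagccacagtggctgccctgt
Of 35116 RefSeq promoters of this length, 7.71% hold the AP-1 letters, 1.85% CRE, 14.03% TEAD, 11.5% TATA, 44.95% the GC box and 4.14% ETS, and the median promoter had 58.7% GC and 14 CpG. The PIEZO1 window (chr16:88785171-88785470, minus strand) had 81.0% GC and 44 CpG, with 4 GC boxes and a TATA motif. KCNMA1 has 2 RefSeq windows on the minus strand: chr10:77637759-77638058, with 85.7% GC, 54 CpG and 7 GC boxes, and chr10:77350712-77351011, with 54.7% GC, 1 CpG and 2 AP-1 motifs. These matches describe letters and not binding.

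KCNE4, the auxiliary subunit gene, was likewise close to silent in the parent and present in every resistant line. It had the highest fold of the 6 genes in EB- and VC-resistant cells, and a fold like that of PIEZO2 in DT-resistant cells. It had 38.4, 64.8 and 54.6 CPM in EB-resistant, 16.4, 14.9 and 13.95 CPM in VC-resistant, 17, 12.8 and 11.4 CPM in DT-resistant, and 0.152, 0.0794 and 0.261 CPM in sensitive replicates. EB-resistant libraries lay above all others, VC-resistant and DT-resistant libraries overlapped, and every resistant library was far above every parental one. The parental libraries held 23 KCNE4 counts in total. The log2FC against sensitive was 8.32 ± 0.32, 6.52 ± 0.32 and 6.38 ± 0.32 in EB-, VC- and DT-resistant cells. EB-resistant exceeded VC-resistant by 1.80 ± 0.20 and DT-resistant by 1.94 ± 0.20 log2 units, while VC-resistant and DT-resistant differed by 0.13 ± 0.20. Over the 12 libraries, log2 CPM of KCNE4 and PIEZO2 correlated at r = 0.985, the highest of the 15 pairs among the 6 genes. The points share the 4 groups, and the parental libraries with few counts set most of their range.

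KCNJ15, the inward rectifier, was higher than in the parent in 1 line, DT-resistant. Its level was 1.02, 1.43 and 1.55 CPM in EB-resistant, 1.08, 0.594 and 0.672 CPM in VC-resistant, 20.7, 17.9 and 18.6 CPM in DT-resistant, and 1.33, 2.62 and 2.09 CPM in sensitive replicates. DT-resistant libraries stood apart from the rest, VC-resistant libraries lay below the parental ones, and EB-resistant libraries overlapped both. The log2FC against sensitive was -0.60 ± 0.25, -1.39 ± 0.27 and 3.24 ± 0.23 in EB-, VC- and DT-resistant cells. EB-resistant and VC-resistant differed from DT-resistant by -3.83 ± 0.24 and -4.63 ± 0.26 log2 units, and EB-resistant was 0.80 ± 0.28 above VC-resistant. The VC-resistant and DT-resistant lines, the pair with the fewest genes passing over the whole table, were thus the farthest apart of all pairs of groups for this gene. DSCR8, a long noncoding RNA gene on the same strand that overlaps KCNJ15, had 412, 488 and 505 counts in EB-, VC- and DT-resistant and 54 in sensitive libraries, against 193, 104, 2593 and 289 counts of KCNJ15. DSCR8 was thus high in all resistant lines, including those with low KCNJ15.

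The calcium-activated channel genes KCNMA1 and KCNN4 were both lower in every resistant line, KCNMA1 to a like degree and KCNN4 in steps. KCNMA1 had 61.7, 55.4 and 50.7 CPM in EB-resistant, 58.8, 54.0 and 57.3 CPM in VC-resistant, 69.7, 60.1 and 53.1 CPM in DT-resistant, and 76.7, 86.5 and 80.6 CPM in sensitive replicates. All resistant libraries lay below all parental ones and overlapped between lines. The log2FC against sensitive was -0.54 ± 0.10, -0.52 ± 0.10 and -0.41 ± 0.10 in EB-, VC- and DT-resistant cells, and differences among the lines were between -0.02 and -0.12 with a standard error of 0.10.

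KCNN4 had 19.1, 21.4 and 18.4 CPM in EB-resistant, 12.6, 13.8 and 13.2 CPM in VC-resistant, 11.3, 8.90 and 9.58 CPM in DT-resistant, and 38.6, 37.4 and 38.1 CPM in sensitive replicates. No 2 groups overlapped, and the order was sensitive, EB-resistant, VC-resistant, DT-resistant. The log2FC against sensitive was -0.95 ± 0.10, -1.53 ± 0.10 and -1.94 ± 0.10 in EB-, VC- and DT-resistant cells. EB-resistant exceeded VC-resistant by 0.57 ± 0.10 and DT-resistant by 0.98 ± 0.10, and VC-resistant exceeded DT-resistant by 0.41 ± 0.10 log2 units. Within a library and per kilobase of gene model, KCNN4 stood at 4.09 ± 0.456 times the KCNMA1 level in EB-resistant, 2.702 ± 0.236 in VC-resistant, 1.90 ± 0.188 in DT-resistant and 5.44 ± 0.415 in sensitive cells.

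**Figure D2:**
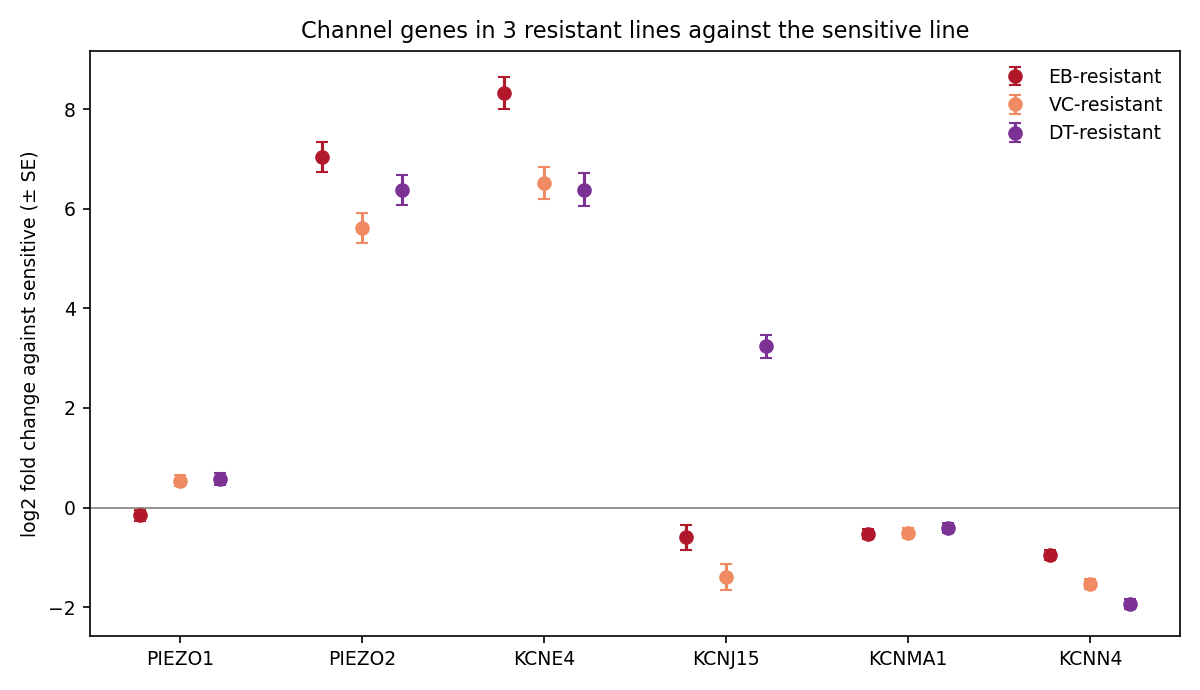
Log2 fold change of each gene in the 3 resistant lines against sensitive (points) with its standard error (bars). PIEZO2 and KCNE4 lie above 5 in all lines, KCNJ15 is above 0 in DT-resistant only, and KCNMA1 and KCNN4 lie below 0 in all lines.

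MDFIC fell modestly in EB-resistant cells, and the BK beta subunit genes KCNMB3 and KCNMB4 were scarce in all groups. MDFIC, which binds PIEZO channels as an auxiliary subunit, had 21.8 ± 0.209, 28.4 ± 1.88 and 24.5 ± 3.21 CPM in EB-, VC- and DT-resistant cells and 29.5 ± 0.891 CPM in sensitive cells. It fell in EB-resistant (log2FC -0.44 ± 0.10, edgeR adjusted p = 0.00116) and did not pass in VC-resistant (log2FC -0.06 ± 0.10, adjusted p = 0.64). Its pass in DT-resistant (log2FC -0.27 ± 0.10, adjusted p = 0.024) was lost with 2 groups only (adjusted p = 0.0603) and without sensitive replicate 2 or 5, or DT-resistant replicate 2 (adjusted p = 0.0596 to 0.134). The BK beta subunit gene KCNMB3 had at most 0.673 ± 0.276 CPM, in EB-resistant cells, and passed in no comparison with sensitive, and KCNMB4 had 6, 12 and 3 counts in EB-, VC- and DT-resistant and 26 in sensitive libraries, too few to be tested.

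Calmodulin is the calcium sensor bound to KCNN4. Of its genes, CALM2 fell in all resistant lines, to 328.7 ± 12.0, 400.5 ± 26.5 and 430.4 ± 29.1 CPM in EB-, VC- and DT-resistant cells, against 748.4 ± 42.6 CPM in sensitive cells (log2FC -1.19 ± 0.07, -0.90 ± 0.07 and -0.80 ± 0.07, adjusted p at most 3.34e-07). CALM3 rose in EB-resistant (log2FC 0.39 ± 0.08, adjusted p = 0.000626), did not pass in VC-resistant (log2FC -0.03 ± 0.08, adjusted p = 0.791) and fell in DT-resistant (log2FC -0.50 ± 0.08, adjusted p = 6.85e-05).

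The near relatives of KCNN4 and KCNE4 were low. KCNN3, a small-conductance calcium-activated channel gene, had 101, 2 and 5 counts in EB-, VC- and DT-resistant and 14 in sensitive libraries. It rose in EB-resistant (log2FC 2.79 ± 0.57, adjusted p = 0.000605), and its relative KCNN2, with 1, 37, 22 and 48 counts in the same order, fell there (adjusted p = 0.000119). KCNE3, another auxiliary subunit of the KCNE family, had 135, 2, 7 and 1 counts in EB-, VC- and DT-resistant and sensitive libraries and rose in EB-resistant (adjusted p = 1.04e-05). KCNE5 had 42, 26, 57 and 70 counts in that order. It passed only in VC-resistant (log2FC -1.33 ± 0.48, adjusted p = 0.0283), a pass lost when VC-resistant replicate 5 or 6, or sensitive replicate 2 or 5, was left out (adjusted p = 0.0681 to 0.129). KCNE1 and KCNE2 had 16 and 17 counts over all libraries. KCNN3 and KCNE3 met the low-count filter only through EB-resistant libraries, so their passes in EB-resistant are not independent of the filter. KCNN1, KCNMB1, KCNMB2, LRRC26, LRRC38, LRRC52, LRRC55, MDFI, KCNQ1, KCNA3 and KCNJ16 had no row in the count table and were not analysed. Every gene of that table held at least 11 counts in total.

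Other potassium channel genes moved in both directions. Of 104 genes on 5 lists of potassium channels and their subunits, 27 besides the members were tested. In EB-resistant against sensitive, 7 rose and 12 fell, or 70.4% against 56.1% of all tested genes, with a median log2FC of -0.34. In VC-resistant, 5 rose and 9 fell, or 51.9% against 55% of all genes, with a median of -0.31. In DT-resistant, 5 rose and 10 fell, or 55.6% against 59.1% of all genes, with a median of -0.43. The shares in VC- and DT-resistant cells were thus no higher than those of all genes. The EB-resistant share includes KCND3, KCNE3 and KCNN3, which met the low-count filter only through EB-resistant libraries. It also includes KCNH3, KCNJ4 and KCNAB3, which met it only through sensitive libraries. KCNH3, KCNJ4 and KCNAB3 fell in VC- and DT-resistant as well, so the same limit holds for the shares there. Over all tested genes the median log2FC was between -0.01 and 0.00, with 4869, 4717 and 5106 genes that rose and 4730, 4694 and 5010 that fell in EB-, VC- and DT-resistant. The VC-resistant count of genes that rose was 8 without VC-resistant replicate 2.

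By family, the 10 tested voltage-gated channel genes had 2, 3 and 3 that rose and 5, 3 and 3 that fell in EB-, VC- and DT-resistant cells. Their shares were 70%, 60% and 60%, against 56.1%, 55% and 59.1% of all tested genes. Leaving out EB-resistant replicate 5 left 1 that rose in EB-resistant, and leaving out VC-resistant replicate 2 gave 5 that rose in VC-resistant. KCNG1, a silent modifier of Kv2 channels, fell in EB-resistant to 17.9 ± 4.11 CPM against 94.3 ± 29.8 CPM in sensitive cells (log2FC -2.39 ± 0.24, adjusted p = 8.45e-06), and passed in neither other line. KCNQ3, an M-current subunit gene, fell in VC-resistant (log2FC -1.36 ± 0.19, adjusted p = 2.4e-05) and DT-resistant (log2FC -1.93 ± 0.19, adjusted p = 7.94e-07). KCNH1, the ether-à-go-go channel Kv10.1 known from tumour cells, rose in VC-resistant (log2FC 0.82 ± 0.18, adjusted p = 0.00188) and DT-resistant (log2FC 1.23 ± 0.19, adjusted p = 6.68e-05). KCNQ5 rose in VC-resistant (log2FC 0.55 ± 0.09, adjusted p = 8.58e-05), and KCND1, an A-type channel gene, passed in all lines. It rose in VC-resistant (log2FC 0.84 ± 0.23, adjusted p = 0.00577) and DT-resistant (log2FC 1.04 ± 0.23, adjusted p = 0.00107), while its pass in EB-resistant (log2FC 0.67 ± 0.23, adjusted p = 0.02) was lost without sensitive replicate 6 or EB-resistant replicate 5 (adjusted p = 0.0616 and 0.142).

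Among 7 tested auxiliary subunit genes, 2, 1 and 1 rose and 3, 3 and 2 fell in EB-, VC- and DT-resistant cells. Their shares were 71.4%, 57.1% and 42.9%, against 56.1%, 55% and 59.1% of all tested genes. KCNAB2, a beta subunit of Kv1 channels, reached 255.3 ± 7.64, 316.3 ± 9.02 and 286.4 ± 41.7 CPM in EB-, VC- and DT-resistant cells, against 173.8 ± 5.90 CPM in sensitive cells, and rose in each (adjusted p at most 4.89e-05). KCNIP3, a calcium-binding partner of Kv4 channels, fell in each line (log2FC -1.004 ± 0.14, -1.76 ± 0.14 and -2.11 ± 0.15 in EB-, VC- and DT-resistant). ABCC9, the sulfonylurea receptor of KATP channels, fell in EB-resistant (log2FC -2.05 ± 0.28, adjusted p = 4.27e-05). The 4 tested calcium- and sodium-activated channel genes other than the members had 2, 1 and 1 that rose and 2, 1 and 1 that fell (100%, 50% and 50%). The 1 that fell in VC-resistant was KCNN3, whose call there was lost with DESeq2 and without sensitive replicate 2 or 6, any EB-resistant library, VC-resistant replicate 2 or 5, or DT-resistant replicate 5 (adjusted p = 0.0522 to 0.199). Of the 4 other inward rectifier genes, all under 5 CPM in every group, 2, 2 and 3 fell (50%, 50% and 75%). Of 2 tested two-pore genes, 1 rose in EB-resistant and 1 fell in DT-resistant (50% in each). Leaving out any 1 sensitive or EB-resistant library left 1 inward rectifier that fell in EB-resistant.

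Of 18 tested mechanosensitive and volume-regulated channel genes and PIEZO partners, 9 rose and 4 fell in EB-resistant (72.2%, against 56.1% of all genes), 8 rose and 4 fell in VC-resistant (66.7%, against 55%), and 6 rose and 6 fell in DT-resistant (66.7%, against 59.1%). Median log2FC was 0.21, 0.17 and -0.14, and 5 rose in VC-resistant without sensitive replicate 6. The VC-resistant share includes TRPC6, with 17, 140, 15 and 22 counts in EB-, VC- and DT-resistant and sensitive libraries. It met the low-count filter only through VC-resistant libraries. TRPC1, a cation channel subunit, rose in EB-resistant to 10.9 ± 0.851 CPM against 4.07 ± 0.328 CPM in sensitive cells (log2FC 1.42 ± 0.15, adjusted p = 1.27e-06) and also in DT-resistant (log2FC 0.64 ± 0.15, adjusted p = 0.00214). PKD2, the polycystin-2 channel, had 75.8 ± 6.95, 17.4 ± 2.44 and 16.6 ± 3.58 CPM in EB-, VC- and DT-resistant cells and 32.6 ± 2.09 CPM in sensitive cells. It rose in EB-resistant and fell in the other two lines. TMEM63A, of the osmosensitive OSCA/TMEM63 family, fell in VC-resistant (log2FC -1.33 ± 0.12) and DT-resistant (log2FC -1.21 ± 0.12), and TMEM63B rose in EB-resistant (log2FC 0.88 ± 0.12) and DT-resistant (log2FC 0.79 ± 0.12). Among subunits of the volume-regulated anion channel, LRRC8C fell in EB-resistant (log2FC -2.92 ± 0.18) and DT-resistant (log2FC -1.22 ± 0.16), LRRC8B fell in EB-resistant (log2FC -1.96 ± 0.23) and VC-resistant (log2FC -0.64 ± 0.22), and LRRC8E rose in all lines (log2FC 0.62 ± 0.11, 1.07 ± 0.11 and 1.08 ± 0.11 in EB-, VC- and DT-resistant). The LRRC8B pass in VC-resistant was lost when VC-resistant replicate 5 or 6, or sensitive replicate 5, was left out (adjusted p = 0.0622 to 0.0847). LRRC8C in VC-resistant (log2FC -0.40 ± 0.16, adjusted p = 0.0508) passed with RLE scaling, DESeq2, a replicate block or 2 groups only. It also passed there without VC-resistant replicate 6 or any 1 DT-resistant library. LRRC8B in DT-resistant (log2FC -0.48 ± 0.21, adjusted p = 0.068) passed with a replicate block or without DT-resistant replicate 2. ASIC1, a proton-gated channel, rose in EB-resistant (log2FC 0.90 ± 0.21, adjusted p = 0.00163) and VC-resistant (log2FC 1.12 ± 0.21, adjusted p = 0.000314).

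Of 17 tested genes that raise, clear or sense cytosolic calcium, 5 rose and 9 fell in EB-resistant (82.4%, against 56.1% of all genes), 3 rose and 10 fell in VC-resistant (76.5%, against 55%), and 2 rose and 9 fell in DT-resistant (64.7%, against 59.1%). Their median log2FC was -0.30, -0.40 and -0.50, against -0.01 to 0.00 over all genes, and the direction of the list was not tested. STIM1, the calcium sensor of the endoplasmic reticulum, rose in all lines (log2FC 0.66 ± 0.11, 0.76 ± 0.11 and 0.68 ± 0.11 in EB-, VC- and DT-resistant). ORAI3, a pore subunit of store-operated entry, had 16.1 ± 1.64, 3.12 ± 0.839 and 3.31 ± 0.247 CPM in EB-, VC- and DT-resistant cells and 7.15 ± 1.39 CPM in sensitive cells. ITPR1, a calcium release channel, rose in VC-resistant and DT-resistant (log2FC 1.21 ± 0.10 in each), and ITPR2 fell in EB-resistant (log2FC -1.48 ± 0.11, adjusted p = 2.22e-08). ITPR2 also passed in VC-resistant (log2FC -0.26 ± 0.10, adjusted p = 0.0434), a pass lost with DESeq2 or no filter and without any 1 sensitive or EB-resistant library, VC-resistant replicate 5 or 6, or DT-resistant replicate 5 (adjusted p = 0.0506 to 0.183).

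**Figure D3:**
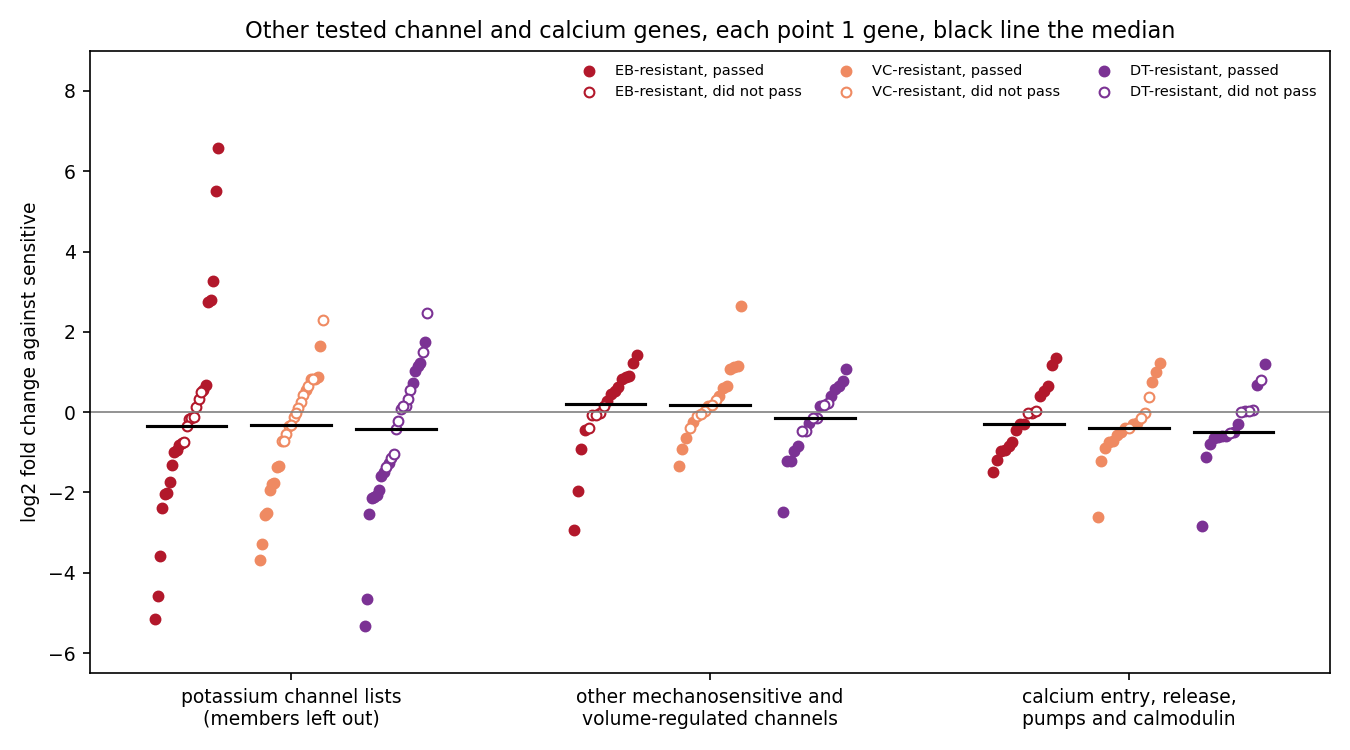
Log2 fold change against sensitive of each tested gene of the pooled potassium channel lists (27, members left out), the mechanosensitive list (18) and the calcium list (17), by resistant line. Filled points passed the threshold, open points did not, and the black line is the median, which lies between -0.50 and 0.21.

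Likeness of pattern was measured as Pearson r of log2 CPM over the 12 libraries, among 12988 tested genes with a mean of at least 1 CPM. These r values describe 12 points in 4 groups and carry no test. PIEZO1 was most like CYFIP1, a WAVE complex gene (r = 0.986), then R3HDM2 and SCAPER (both r = 0.97). CYFIP1 had 112.2, 163.4 and 161.0 CPM in EB-, VC- and DT-resistant and 119.9 CPM in sensitive cells. PIEZO2 was most like HECW1, a ubiquitin ligase gene (r = 0.991), SLC25A43 and GDF6, and KCNE4 was most like GDF6, a ligand of the bone morphogenetic protein family (r = 0.994), the long noncoding RNA EDIL3-DT and the carboxypeptidase gene CPA3 (both r = 0.99). GDF6 had 14.5, 6.15 and 6.94 CPM in EB-, VC- and DT-resistant and 0.127 CPM in sensitive cells. By Spearman rank correlation, HECW1, SLC25A43 and GDF6 ranked 90, 291 and 116 for PIEZO2. By the same measure, GDF6, EDIL3-DT and CPA3 ranked 14, 132 and 61 for KCNE4. SLC25A43 had 31.1, 24.4 and 29.2 CPM in EB-, VC- and DT-resistant and 13.8 CPM in sensitive cells, so a high r did not mean a like fold. KCNJ15 was most like LRIG1, a gene that restrains receptor tyrosine kinases (r = 0.976), WNT5A, a Wnt ligand (r = 0.972), and ATP8A2. WNT5A had 64.9, 64.8 and 262.1 CPM in EB-, VC- and DT-resistant and 91.4 CPM in sensitive cells. KCNMA1 was most like LPIN1, a phosphatidate phosphatase gene (r = 0.957), CTDNEP1 and TADA2B. KCNN4 was most like ANGPTL2, a secreted angiopoietin-like factor (r = 0.984), TFCP2 and S100A13. ANGPTL2 had 2.82, 0.501 and 0.256 CPM in EB-, VC- and DT-resistant and 18.3 CPM in sensitive cells.

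Neighbouring genes were examined after the values were seen. Within 1000 kb of the start of PIEZO2, 6 other genes were tested, of which 2, 6 and 5 rose in EB-, VC- and DT-resistant cells, and 3 fell in EB-resistant. Of all tested genes, 56.1%, 55% and 59.1% passed in either direction in the same 3 lines. The nearest tested protein-coding gene on one side, 539.7 kb away, was GNAL, the G protein subunit of olfactory and striatal signalling. GNAL had 7.52 ± 1.91, 13.3 ± 2.01 and 25.8 ± 6.14 CPM in EB-, VC- and DT-resistant cells against 1.86 ± 0.537 CPM in sensitive cells. GNAL rose in each line (log2FC 2.02 ± 0.25, 2.84 ± 0.25 and 3.80 ± 0.26, adjusted p at most 1.49e-05), in a different order of lines from PIEZO2. On the other side NAPG, a membrane fusion adaptor, fell in EB-resistant (log2FC -0.72 ± 0.08) and rose in VC-resistant and DT-resistant (log2FC 0.28 ± 0.08 and 0.27 ± 0.08). A gene without a symbol, with its start 636.6 kb from that of PIEZO2, did not pass in EB-resistant (log2FC 0.0, without a standard error). It rose in VC-resistant (log2FC 6.76 ± 1.19, adjusted p = 0.00056) and DT-resistant (log2FC 8.37 ± 1.00, adjusted p = 2.57e-05), higher folds than those of PIEZO2 there. This gene met the low-count filter only through libraries of those lines, so its passes are not independent of the filter. Its folds are set against a parental level near the floor.

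The nearest tested protein-coding genes beside the other channel genes lay 4.62 to 629.2 kb away and moved in varied ways. RNF166 and CDT1 beside PIEZO1 both fell in EB-resistant (log2FC -0.30 ± 0.10 and -0.41 ± 0.12), RNF166 rose in VC-resistant (log2FC 0.40 ± 0.10), and CDT1 fell in DT-resistant (log2FC -0.37 ± 0.12). In EB-resistant the RNF166 pass was lost without sensitive replicate 5 or EB-resistant replicate 2 (adjusted p = 0.0513 and 0.0667), and that of CDT1 without EB-resistant replicate 2 (adjusted p = 0.068). In DT-resistant the CDT1 pass was lost without sensitive replicate 5 or 6, or DT-resistant replicate 2 or 6 (adjusted p = 0.056 to 0.0707). ACSL3, 107.2 kb from KCNE4, did not pass in EB-resistant (log2FC 0.04 ± 0.13, adjusted p = 0.803). It fell in VC-resistant (log2FC -0.72 ± 0.13, adjusted p = 0.000348) and DT-resistant (log2FC -0.73 ± 0.13, adjusted p = 0.000247). SCG2, 398.5 kb away on the other side of KCNE4, passed in no comparison with sensitive. ETS2, 497.8 kb from KCNJ15, fell in EB-resistant (log2FC -1.63 ± 0.13) and DT-resistant (log2FC -0.55 ± 0.13). On the other side DYRK1A, 629.2 kb away, rose in EB-resistant (log2FC 0.37 ± 0.07, adjusted p = 0.00057). Its pass in DT-resistant (log2FC 0.18 ± 0.07, adjusted p = 0.0431) was lost with 2 groups only and when DT-resistant replicate 2 or 5, VC-resistant replicate 6, EB-resistant replicate 5 or 6, or sensitive replicate 5 or 6 was left out (adjusted p = 0.0503 to 0.147). DSCR4, a long noncoding RNA gene in the table whose start lies at -34.2 kb from that of KCNJ15, on the side of lower coordinates, rose in every line (log2FC 2.98 ± 0.70, 2.97 ± 0.71 and 3.07 ± 0.70 in EB-, VC- and DT-resistant). LRMDA on one side of KCNMA1 fell in VC-resistant (log2FC -0.84 ± 0.23), and DLG5 on its other side fell in every line (log2FC -0.54 ± 0.10, -0.95 ± 0.10 and -1.10 ± 0.10 in EB-, VC- and DT-resistant). SMG9, 11.6 kb from KCNN4, also fell in every line (log2FC -0.68 ± 0.09, -1.56 ± 0.09 and -1.67 ± 0.09), while LYPD5, 4.62 kb away on the other side, had 0.981, 2.45 and 3.05 CPM in EB-, VC- and DT-resistant and 0.482 CPM in sensitive cells and rose in each. The LYPD5 pass in EB-resistant was lost without sensitive replicate 5 (log2FC 0.85, adjusted p = 0.0528). Of 57 tested genes within 1000 kb of KCNN4, 24, 14 and 20 rose and 5, 9 and 12 fell in EB-, VC- and DT-resistant cells, no higher a share than the 56.1%, 55% and 59.1% of all tested genes.

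**Figure D4:**
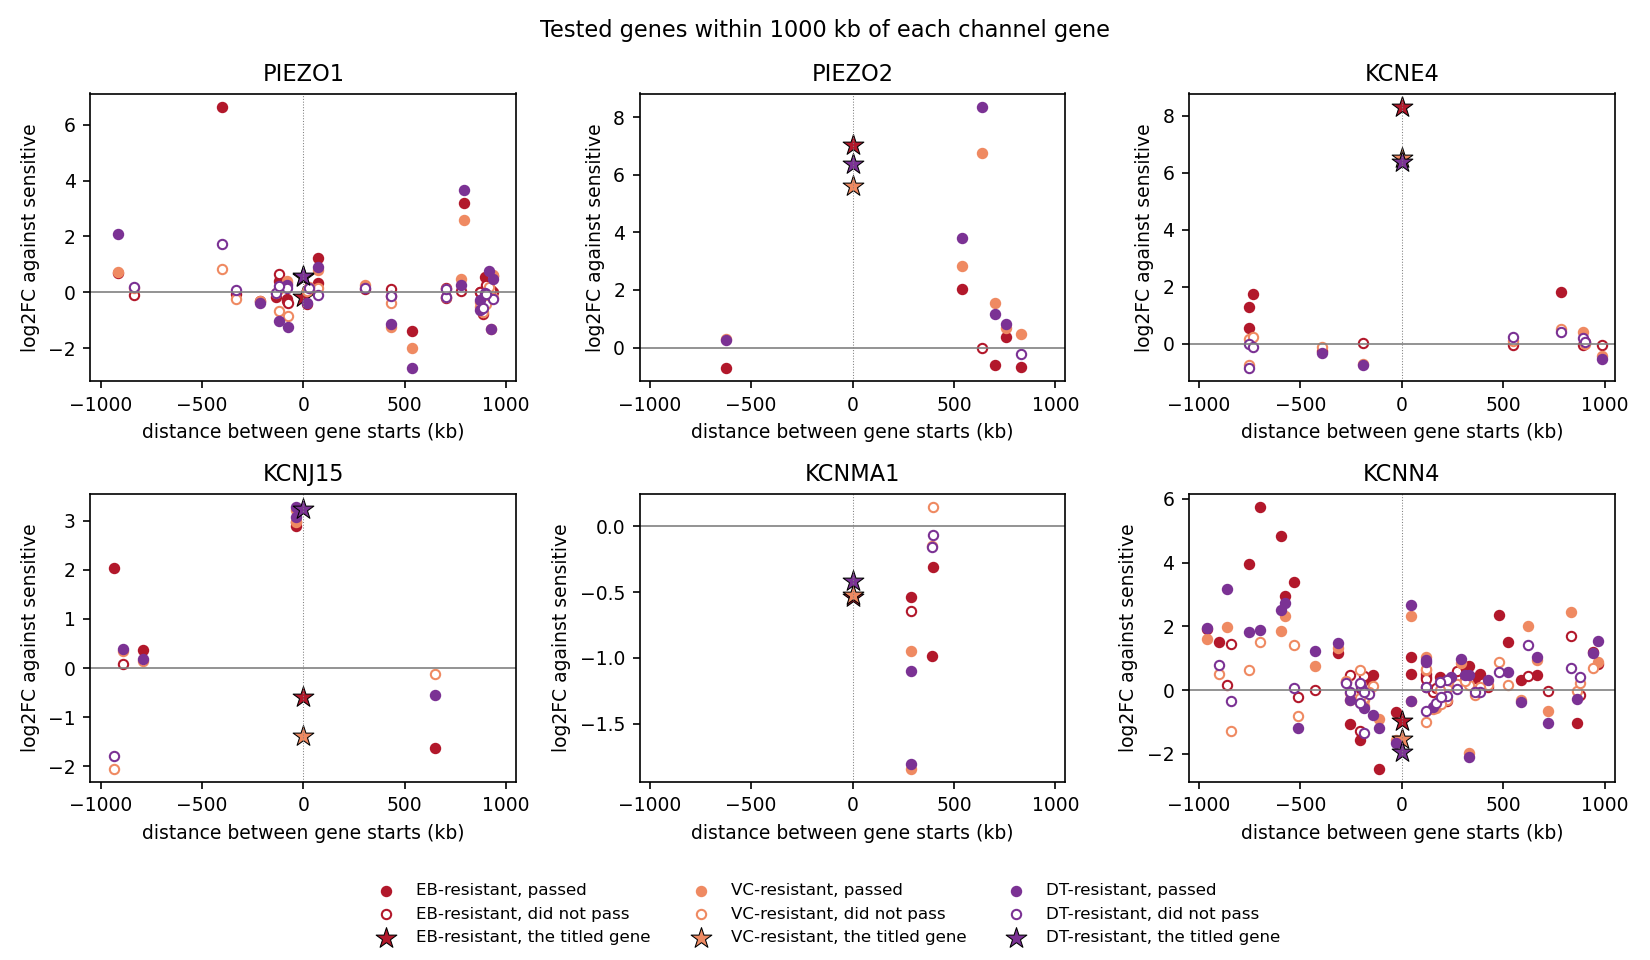
Log2 fold change against sensitive of tested genes within 1000 kb of each channel gene, by distance between gene starts in kb; stars are the channel gene itself, filled points passed and open points did not. The PIEZO2 stars lie above 5 with GNAL above 2 in every line, and a gene without a symbol lies above them in VC-resistant (6.76) and DT-resistant (8.37). That gene met the low-count filter only through libraries of those lines. In the KCNE4 panel no other gene lies above 2.

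Markers of other cell types were checked beside these results. All 8 fibroblast markers were in the table, and their summed level was 524.9 to 588.1 CPM in EB-resistant, 280.9 to 313.8 CPM in VC-resistant, 361.1 to 467.8 CPM in DT-resistant and 109.2 to 148.3 CPM in sensitive libraries, the same order of groups as for PIEZO2. Of 5 tested, 5, 4 and 5 rose in EB-, VC- and DT-resistant, where 56.1%, 55% and 59.1% of all tested genes passed in either direction. The tested markers include COL3A1, with 168, 57, 153 and 9 counts in EB-, VC- and DT-resistant and sensitive libraries. COL3A1 met the low-count filter only through resistant libraries. THY1 made up most of the sum, at 409.5, 277.4, 248.3 and 127.0 CPM in EB-, VC- and DT-resistant and sensitive cells. Its level was thus higher in VC-resistant than in DT-resistant, unlike PIEZO2. LUM had 49.8, 14.7, 145.0 and 0.916 CPM in the same order, and PDGFRB 74.5, 2.60, 2.49 and 0.784 CPM. COL1A2 had 9, 1, 0 and 1 counts, DCN 21, 2, 8 and 0 counts and PDGFRA 14, 3, 3 and 10 counts in that order. The part of these fibroblast markers in the PIEZO2 and KCNE4 values was not tested. Of 7 tested smooth muscle markers, 5, 3 and 3 rose and 2, 2 and 2 fell in EB-, VC- and DT-resistant. The shares of all tested genes that passed there were again 56.1%, 55% and 59.1%. Those that rose include CNN1, DES and LMOD1, which met the low-count filter only through resistant libraries. CNN1 had 28.2, 3.85 and 7.25 CPM in EB-, VC- and DT-resistant and 0.0145 CPM in sensitive cells, the same order of groups as PIEZO2, and its part in the PIEZO2 values was not tested. TAGLN had 7.35, 70.9 and 23.0 CPM in EB-, VC- and DT-resistant and 0.391 CPM in sensitive cells. SMTN was highest in sensitive cells, at 50.9, 39.0 and 21.5 CPM in EB-, VC- and DT-resistant and 110.3 CPM in sensitive cells. The 8 smooth muscle markers summed to 86.6 to 91.8 CPM in EB-resistant, 98.9 to 134.1 CPM in VC-resistant, 58.55 to 59.85 CPM in DT-resistant and 106.4 to 121.5 CPM in sensitive libraries. Endothelial, haematopoietic and neuronal markers summed to at most 12.9 CPM in any library. Of the epithelial markers, KRT8 and KRT18 fell in every line, and CDH1 had 23, 1, 0 and 2 counts in EB-, VC- and DT-resistant and sensitive libraries. Of 14 melanocyte lineage markers, 8 were in the table and summed to 113.5 to 115.0 CPM in EB-resistant, 116.1 to 139.3 CPM in VC-resistant, 114.7 to 129.1 CPM in DT-resistant and 88.6 to 99.6 CPM in sensitive libraries, mostly MITF, PAX3 and GPR143, with the pigment genes PMEL, DCT and TYRP1 under 1 CPM in every group. TYR, MLANA, SOX10, SLC45A2, OCA2 and S100B had no row in the count table, where every gene held at least 11 counts in total, and were not analysed.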

How the data were processed

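Per the submitters' processing notes, the tools were STAR 2.7.10b (genome hg38), bcl2fastq 2.20.0, featureCounts 2.0.1 and DESeq2 1.38.3; the labels give poly(A) selection and a strand-specific kit. Neither annotation release nor strand setting is stated there. The deposited table holds read counts per gene and the authors' normalised counts, a signal equal to the count divided by a size factor of each library (within 0.0714). All deposited columns matched a sample, and no duplicated library was found.

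The 6 genes, the gene lists and the naming rule were chosen with earlier results of these data known. The rule names the 6 genes; per list and comparison with sensitive, the 2 called genes per direction with the largest fold change and at least 5 CPM in the higher group; fixed partners and relatives; and the 3 most-like genes; 1 gene that the rule names is not reported here. Counts were fitted in edgeR 4.0.16 (R 4.3.3): filterByExpr, TMM, robust quasi-likelihood with 1 mean per group and 8 residual degrees of freedom, F-tests for 6 pairs of groups, Benjamini-Hochberg over 17114 genes. Standard errors were derived from the F statistic, and log2 CPM used a prior count of 2. Alternatives were DESeq2 1.42.0, RLE scaling, no filter, 2 groups only, a replicate block, leaving out each library, and the authors' normalised counts. Same-numbered VC-resistant and DT-resistant libraries deviated together (r = 0.337, 0.151 and 0.195 for replicates 2, 5 and 6), so the data pair these lines; no other pair of groups had r over 0.1 for all numbers. A simulation of EB-resistant against sensitive with 15775 genes was fitted with these 2 groups only. It recovered 31, 47, 50 and 50 of 50 genes set at 1.5-, 2-, 4- and 0.25-fold, and 14 of 15575 unchanged genes were called. Few genes were changed there, whereas 56.1% passed in the data, so the rate of false calls in the data was not measured. P values measure spread between experiments on 1 line per drug pair.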

Additional observations from a re-analysis of the deposited data

Results flagged for a closer look

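KCNJ15 moved in opposite directions in 2 resistant lines. Every DT-resistant library lay above all sensitive libraries (log2FC 3.24), and every VC-resistant library lay below them (log2FC -1.39); since the gene was chosen with these values known, the difference was not tested.

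CALM3, KCNN3, ORAI3 and PKD2 among other channel and calcium genes passed the threshold in opposite directions in different lines. They were picked for these opposite calls against the same parent libraries, so no p is given for the difference between lines, which follows from the choice. PKD2 had log2FC 1.22, -0.91 and -0.97 in EB-, VC- and DT-resistant cells, each against sensitive. ORAI3 had 1.17, -1.21 and -1.11 in EB-, VC- and DT-resistant cells. CALM3 had 0.39 in EB-resistant and -0.50 in DT-resistant cells. KCNN3 had 2.79 in EB-resistant and -2.57 in VC-resistant cells, on 101, 2 and 14 counts in EB-resistant, VC-resistant and sensitive libraries. It met the low-count filter only through EB-resistant libraries. The KCNN3 pass in VC-resistant was lost without sensitive replicate 2 or 6, EB-resistant replicate 2, 5 or 6, VC-resistant replicate 2 or 5, or DT-resistant replicate 5 (edgeR adjusted p = 0.0554 to 0.199).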

How the results depend on the processing

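All 36 log2 fold changes of the 6 genes kept their direction where called and stayed within 1 replicate SD under RLE scaling, no filter, DESeq2, 2 groups only, the replicate block and the authors' normalised counts (largest shift 0.034), and without any 1 library (largest shift 0.506). KCNJ15 in EB-resistant against sensitive also passed in DESeq2 (log2FC -0.58), and KCNN4 in VC-resistant against DT-resistant did not pass with 2 groups only (log2FC 0.41). Counts over all genes stayed within 1.5 times of their values, except VC-resistant against DT-resistant without VC-resistant replicate 6: over the libraries left out, 756 to 1306 rose and 966 to 1596 fell. With the replicate block, 1591 rose and 1923 fell there, against 1211 and 1491 without it, no call of the 6 genes changed, and 1 list count moved (inward rectifiers that rose in VC-resistant, 1 in place of 0).

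Small list counts, against sensitive, moved as follows. Inward rectifiers that rose in VC-resistant numbered 1 with no filter, DESeq2, the block or 2 groups only, and those in DT-resistant 1 with no filter or DESeq2. Two-pore genes that rose in EB-resistant numbered 2 with no filter or DESeq2, and those that fell in DT-resistant 0 with 2 groups only. Calcium- and sodium-activated genes that fell numbered 1 in EB-resistant with 2 groups only, and 0 in VC-resistant with DESeq2 or 2 groups only. Auxiliary subunits that fell in EB-resistant numbered 5 with no filter. The causes were not tested. Without 1 library, genes that rose ranged from 5 to 8 (pooled potassium lists, VC-resistant), 1 to 3 and 3 to 5 (voltage-gated, EB- and VC-resistant), 0 to 1 (inward rectifiers, VC- and DT-resistant), 1 to 2 and 0 to 1 (two-pore, EB- and DT-resistant) and 5 to 8 (mechanosensitive, VC-resistant). Genes that fell ranged from 1 to 2 and 1 to 4 (inward rectifiers, EB- and VC-resistant), 0 to 2 (two-pore, DT-resistant) and 0 to 1 and 1 to 2 (calcium- and sodium-activated, VC- and DT-resistant). Few parental counts of PIEZO2 and KCNE4 limit their fold changes.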
